A study of Rattus norvegicus with 9 samples.

Results

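The glucocorticoid receptor Nr3c1 and 9 genes known to respond to it or to set its ligand were followed in peripheral blood mononuclear cells (PBMC) of rats on a cafeteria diet. The 10 genes were chosen by name, out of 15182 genes with a symbol on the array, and 18 probes measure them. They are Nr3c1, Fkbp5, Tsc22d3, Sgk1, Zbtb16, Anxa1, Tgm2, Klf9, Ddit4 and Hsd11b1. They were chosen with earlier results of these same arrays known, in which Tgm2 was higher in the cafeteria group, so differences between diets are given here as a description of the genes and not as support for a response. Tgm2 was higher in every cafeteria animal than in any control, 1.9-fold on average, without passing adjustment over all probes. The other 8 genes with a measurable signal overlapped between the diets, and none passed.

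The animals were male Wistar rats, 6 months old when blood was drawn from the saphenous vein while they were fed ad libitum. The control group (n = 4) ate standard chow. The cafeteria group (n = 5) was offered an energy-dense, fat-rich cafeteria diet beside that chow over 4 months, starting at 2 months of age, and the study describes these animals as obese. Mononuclear cells were separated on Ficoll, RNA of 1 animal was labelled with Cy5 on each array, and a Cy3-labelled reference pooled from the samples was on every array. A further control animal was not analysed by the authors because it gave too little RNA. Animals keep the numbers of the labels (controls 1, 4, 7 and 13; cafeteria 1, 4, 7, 10 and 13). Values are log2 ratios of Cy5 over the reference, so that 0 is the level of the reference and 1 is a doubling of it. The 9 arrays came from 7 slides, and 2 slides held an animal of each group (control 1 with cafeteria 1 on slide 3, control 13 with cafeteria 10 on slide 5).

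Glucocorticoids are adrenal steroids that bind a receptor held in the cytoplasm by heat shock chaperones. The loaded receptor moves to the nucleus, where it raises some genes through response elements in DNA and lowers others, many of them inflammatory, by acting on other transcription factors. Blood leukocytes respond strongly: the hormone lowers cytokine production, moves lymphocytes out of the circulation and induces proteins that limit the receptor itself.

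Promoter windows are shown for Tsc22d3 and Klf9. By the values used here this pair had the smallest p among the correlations across animals described further on, none of which passed adjustment. With the scanner software's log ratio another pair had the smallest p. Windows of 250 bases before to 50 bases after an annotated start site (RefSeq, build GRCr8) were at hand for 7 of the 10 genes, 12 windows in all, and Zbtb16, Tgm2 and Hsd11b1 had none. Capitals mark a forkhead heptamer (GTAAACA or, on the other strand, TGTTTAC) and a TATA box (TATAAA or TTTATA). The Tsc22d3 window is the third of 3 for that gene and the only one of them that held either motif. It lies at chrX:109009985-109010284 on the minus strand. The Klf9 window lies at chr1:230126396-230126695 on the plus strand.
Tsc22d3: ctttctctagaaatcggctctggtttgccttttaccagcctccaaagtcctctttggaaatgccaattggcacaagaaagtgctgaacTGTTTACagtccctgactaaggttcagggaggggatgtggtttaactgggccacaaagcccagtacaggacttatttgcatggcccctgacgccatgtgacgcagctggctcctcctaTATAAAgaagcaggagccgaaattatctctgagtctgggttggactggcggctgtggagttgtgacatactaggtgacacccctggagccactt
Klf9: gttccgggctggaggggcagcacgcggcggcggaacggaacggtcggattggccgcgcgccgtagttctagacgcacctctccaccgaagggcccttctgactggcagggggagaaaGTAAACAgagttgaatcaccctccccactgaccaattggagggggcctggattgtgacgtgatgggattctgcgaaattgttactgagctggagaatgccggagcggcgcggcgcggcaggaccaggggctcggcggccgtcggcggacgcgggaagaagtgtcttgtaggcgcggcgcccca
The forkhead heptamer has its first base at position -162 from the start site in Tsc22d3 and at -133 in Klf9. It was found in 2 of the 12 windows, those printed, and in 3.78% of 33469 windows of the same length over all genes. A TATA box was found in 4 of the 12 windows, of Tsc22d3, Sgk1 (2 windows) and Anxa1, and in 14.2% of all windows. The glucocorticoid response element was searched as the palindrome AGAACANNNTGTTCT (0.0149% of all windows) and as its half-site AGAACA or TGTTCT (20.7%; every palindrome holds both). None of the 12 windows held either, which says only that these letters are not in these stretches of 300 bases. The searches covered both strands, and a match is a description of the letters.

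Of the 18 probes, 16 probes of 9 genes had Cy5 well above background on all 9 arrays. Zbtb16, a zinc finger repressor strongly induced by glucocorticoids in many tissues, had 2 probes that were well above background on 1 and on 0 of the 9 arrays. Its background-subtracted Cy5 intensity was 13.2 to 35.4 over both probes and all animals, so no level or difference can be given for it. Over all 25805 probes tested, limma's adjusted p was under 0.05 for 2 probes (0.00775%), and none of the 16 probes of these genes was among them (unadjusted p under 0.05 for 1 of 16). The unadjusted p was under 0.05 for 1136 probes (4.4%). The groups did not overlap for 328 probes (1.27%), and for 117 (0.453%) every cafeteria animal lay above every control. Among the 16 probes 1 had groups that did not overlap, that of Tgm2. The median difference over the 9 genes, taking the brightest probe of each, was 0.12, against 0.01 over all probes tested. Without control 4 the former was 0.05.

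**Figure D1:**
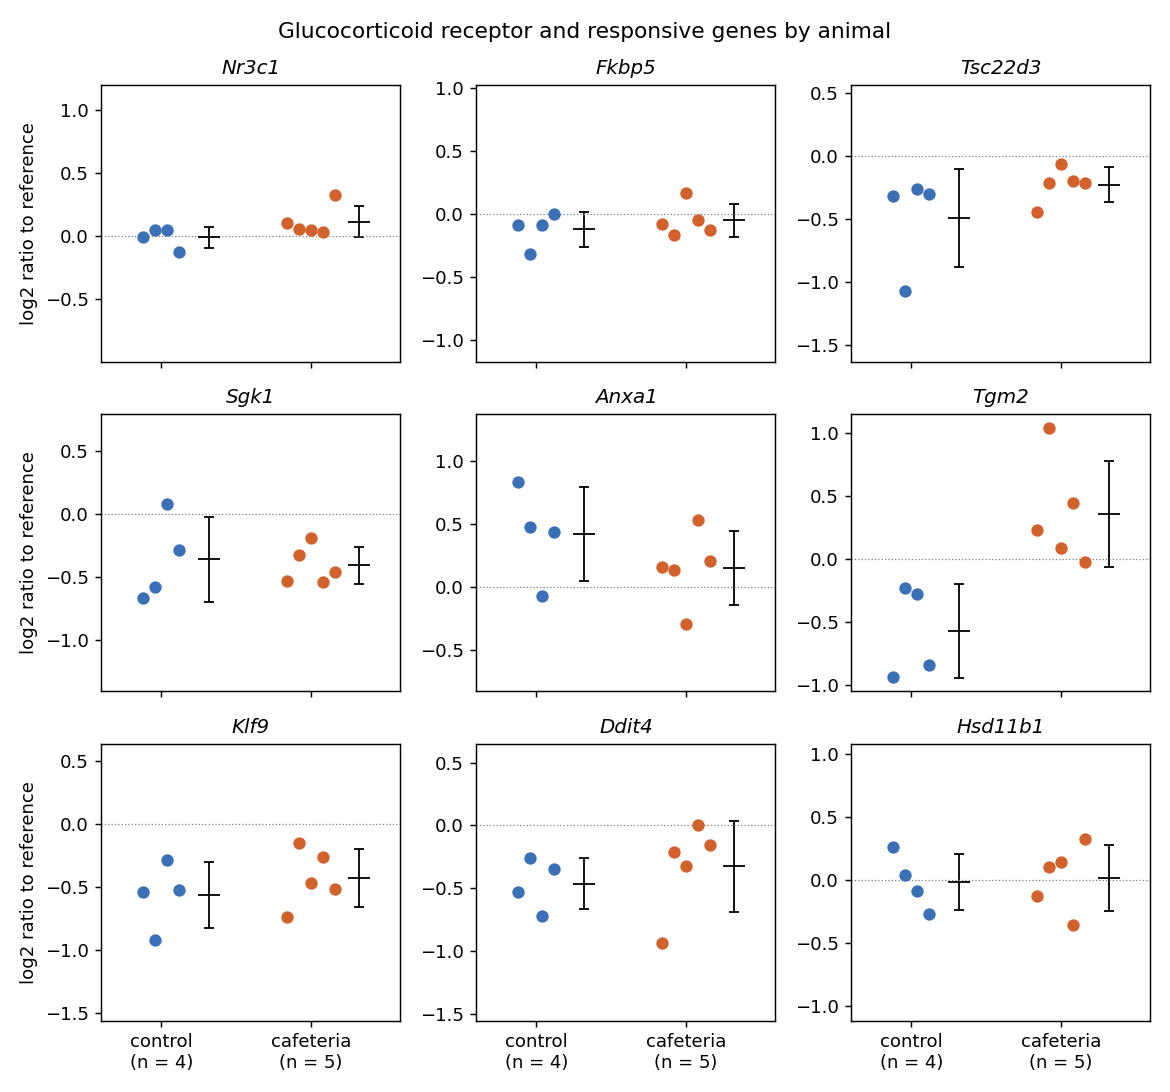
Log2 ratio to the reference (vertical axis, the same span in every panel) of the brightest probe of 9 genes, 1 point per animal, for 4 control and 5 cafeteria animals; the bars are mean ± SD and the dotted line marks the level of the reference. The points of the groups overlap in 8 panels, and in that of Tgm2 the highest control is at -0.23 and the lowest cafeteria animal at -0.02.

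Nr3c1 itself, the receptor, lay close to the reference in 8 of the 9 animals by its brighter probe, and above it in all 9 by the other. Its brighter probe (rn4, chr18:32371932-32371991, minus strand) read -0.00 in control 1, 0.05 in control 4, 0.05 in control 7 and -0.13 in control 13. In the cafeteria animals it read 0.11 (1), 0.06 (4), 0.05 (7), 0.03 (10) and 0.33 (13). The upper controls and 4 of the 5 cafeteria animals shared one narrow band, and cafeteria 13 stood above it. The mean was -0.01 ± 0.08 (SD, n = 4) on chow and 0.12 ± 0.12 (SD, n = 5) on the cafeteria diet, a difference of 0.12 (SE 0.08, 95% interval -0.04 to 0.29, limma adjusted p = 0.997). Without cafeteria 13 the difference was 0.07, and within slides 3 and 5 it was 0.11 and 0.16. The second probe of the receptor was above the reference on all 9 arrays (0.14 to 0.64 in controls, 0.26 to 0.57 in cafeteria animals) and differed by 0.09 (SE 0.11).

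Hsd11b1, the enzyme that regenerates active glucocorticoid from its inert keto form inside cells, had the same mean in both groups to within its error. Its brighter probe read 0.26, 0.03, -0.09 and -0.28 in controls 1, 4, 7 and 13. In cafeteria animals 1, 4, 7, 10 and 13 it read -0.13, 0.10, 0.14, -0.36 and 0.32. Each group ran from well below to well above the reference, and the ranges lay over one another. The difference was 0.03 (SE 0.15, 95% interval -0.29 to 0.36), and the second probe gave 0.04 (SE 0.16). Within slides 3 and 5 the cafeteria animal was the lower one (-0.39 and -0.08), and leaving out each animal in turn gave -0.05 to 0.13.

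Fkbp5, the co-chaperone that lowers the receptor's affinity for hormone and is induced by it in a feedback loop, was measured by 3 probes. The brightest read -0.08, -0.32, -0.08 and 0.00 in controls 1, 4, 7 and 13. In cafeteria animals 1, 4, 7, 10 and 13 it read -0.08, -0.17, 0.17, -0.05 and -0.13. Control 4 was the lowest and cafeteria 7 the highest, and the other 7 animals lay between. The difference was 0.07 (SE 0.09, 95% interval -0.12 to 0.27), and without control 4 it was 0.01. The other probes gave 0.04 (SE 0.13) and -0.05 (SE 0.07), so the 3 probes did not share a sign.

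Tsc22d3, which encodes GILZ, a leucine zipper protein that carries part of the anti-inflammatory action of the hormone in lymphocytes and macrophages, showed 1 animal far from the rest by its brighter probe. Its brighter probe (rn4, chrX:128336564-128336623, minus strand) read -0.32 in control 1, -1.07 in control 4, -0.27 in control 7 and -0.30 in control 13. The cafeteria animals read -0.44 (1), -0.22 (4), -0.06 (7), -0.20 (10) and -0.22 (13). Apart from control 4 the animals of both groups lay between -0.44 and -0.06, below the reference. With the scanner software's log ratio control 4 was still the lowest, at -0.81, but nearer to the others (cafeteria 1 at -0.57, control 13 at -0.55). The difference was 0.26 (SE 0.16, 95% interval -0.10 to 0.62, limma adjusted p = 0.997). It was 0.07 without control 4, -0.01 with slide as a block, and -0.12 and 0.10 within slides 3 and 5. The second probe differed by 0.01 (SE 0.17).

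Klf9, a zinc finger transcription factor induced by glucocorticoid and thyroid hormone, lay below the reference on all 9 arrays by both of its probes. The brighter one (rn4, chr1:226445625-226445684, plus strand) read -0.54, -0.92, -0.28 and -0.52 in controls 1, 4, 7 and 13. In cafeteria animals 1, 4, 7, 10 and 13 it read -0.74, -0.15, -0.47, -0.26 and -0.51. Control 4 was again the lowest, next to cafeteria 1, and the groups overlapped over most of their range. The differences were 0.14 (SE 0.14) and 0.23 (SE 0.15) for the 2 probes. Without control 4 the first was 0.02 and the second 0.35 (unadjusted p = 0.031 in limma), so that by the values used here this animal moved the probes in opposite directions. The first was also 0.07 without cafeteria 4 and 0.23 and 0.22 without control 7 and cafeteria 1, and the second was 0.13 without control 1. With slide as a block they were 0.03 and 0.40. Without background correction the second was 0.38, and with the scanner software's log ratio 0.46 (unadjusted p = 0.013 and 0.014 in limma). It was 0.34 with median centring and 0.45 in the authors' values centred on array medians (unadjusted p = 0.022 and 0.0066 in limma). With a normexp offset of 16 it was 0.24 and with array weights 0.21 (unadjusted p = 0.16 and 0.17 in limma). None passed adjustment.

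Control 4, the lowest animal by the brightest probes of Tsc22d3, Klf9 and Fkbp5, also differed in cell markers. By the second Klf9 probe it was the highest control (-0.24), and by the second Tsc22d3 probe it was at -0.62, next to cafeteria 1 at -0.63. The background-subtracted Cy5 intensity of the second Klf9 probe was nonetheless 304 in control 4, the lowest of the 9 animals (379 to 982 in the others). The ratios of control 4 also changed with the processing. By the scanner software's log ratio it read -0.72 for Tgm2, -0.49 for Ddit4 and -0.98 for Sgk1. The values used here were -0.23, -0.26 and -0.58. Fkbp5 and Klf9 were also larger in size by that ratio. Tsc22d3 was smaller in size (-0.81 against -1.07), as were Nr3c1, Anxa1 and Hsd11b1. Whether the ratio of the dim second Klf9 probe reflects the animal or the processing was not tested. The mean of 7 platelet markers was 1.19 in that animal and -0.35 to 0.30 in the other controls. Its mean over 9 markers of natural killer (NK) and cytotoxic cells, -0.48, was the lowest of the 9 animals. The part of these cells in these values was not tested. In bulk RNA of mixed cells, fewer cells of a type and less RNA per cell cannot be told apart.

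Sgk1, a kinase that is a rapid target of glucocorticoid and mineralocorticoid receptors and acts on ion channels and FOXO factors, read -0.66, -0.58, 0.08 and -0.28 in controls 1, 4, 7 and 13. The cafeteria animals 1, 4, 7, 10 and 13 read -0.53, -0.32, -0.19, -0.54 and -0.46. Control 7 was the only animal above the reference, and the cafeteria range lay inside that of the controls. The difference of -0.05 (SE 0.15, 95% interval -0.37 to 0.28) turned to 0.10 without control 7.

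Ddit4, an inhibitor of the growth kinase mTORC1 that is induced by glucocorticoid, hypoxia and energy stress, read -0.53, -0.26, -0.72 and -0.35 in controls 1, 4, 7 and 13. Cafeteria animals 1, 4, 7, 10 and 13 read -0.94, -0.21, -0.32, 0.00 and -0.16. Cafeteria animals held both the lowest and the highest value. The difference was 0.14 (SE 0.18, 95% interval -0.26 to 0.53), and it was -0.41 within slide 3 and 0.35 within slide 5. It was 0.29 without cafeteria 1 (unadjusted p = 0.028 in limma), 0.05 without control 7 and 0.06 without cafeteria 10.

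Anxa1, the phospholipid-binding annexin through which glucocorticoids restrain neutrophil entry and eicosanoid synthesis, was lower in the cafeteria mean by both of its probes. Its brighter probe read 0.83, 0.47, -0.07 and 0.43 in controls 1, 4, 7 and 13. Cafeteria animals 1, 4, 7, 10 and 13 read 0.15, 0.13, -0.30, 0.53 and 0.21. In each group animal 7 was the lowest and the only one below the reference. The differences were -0.27 (SE 0.19, 95% interval -0.70 to 0.16) and -0.17 (SE 0.21), neither past the threshold (limma adjusted p = 0.997 for both). Single animals moved both: without control 1 they were -0.13 and -0.04, without control 7 they were -0.43 and -0.39 (unadjusted p = 0.031 and 0.025 in limma), and without cafeteria 7 they were -0.16 and -0.11. With the replicate number as a block they were -0.37 (SE 0.10) and -0.27 (SE 0.16). Their unadjusted p was then 0.0098 and 0.16, and the adjusted p 0.987 for both, in limma. The first was -0.68 within slide 3 and 0.10 within slide 5.

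Tgm2, transglutaminase 2, cross-links proteins and is induced by retinoic acid and by glucocorticoid in monocytes and macrophages. Its only probe (rn4, chr3:148832867-148832926, minus strand) read -0.94 in control 1, -0.23 in control 4, -0.28 in control 7 and -0.85 in control 13. The cafeteria animals read 0.23 (1), 1.04 (4), 0.09 (7), 0.44 (10) and -0.02 (13). Every cafeteria animal lay above every control, and both groups were widely spread. With the scanner software's log ratio control 4 was at -0.72 and cafeteria 4 at 1.55. The highest control was then control 7 at -0.41, and the lowest cafeteria animal was 13 at -0.09. The difference of the means was 1.32 (SE 0.32) by that ratio. The background-subtracted Cy5 intensity of the spot was 531 to 660 in controls and 1250 to 3625 in cafeteria animals. Such intensities are not normalized between arrays. Those of both Nr3c1 probes and of the second Klf9 probe did not overlap either. The brighter Nr3c1 probe was at 4522 to 4977 in controls and 5860 to 7867 in cafeteria animals. The second Klf9 probe was at 304 to 582 and 604 to 982. The means were -0.57 ± 0.37 (SD, n = 4) and 0.36 ± 0.42 (SD, n = 5), a difference of 0.93 (SE 0.23, 95% interval 0.42 to 1.44), or 1.9-fold. In limma's fit over all probes the unadjusted p was 0.0024 and the adjusted p 0.853, so the difference did not pass. Of the 25805 probes, 9 had a larger difference in the same direction. Probes lower in the cafeteria mean were not counted. With slide as a block it was 1.23, and within slides 3 and 5 it was 1.17 and 1.29. Leaving out each animal in turn gave 0.76 (without cafeteria 4, the highest animal) to 1.04.

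Markers of red cell precursors were set beside Tgm2 by animal. The mean of 7 erythroid markers (Hbb, Ahsp, Alas2, Car2, Hemgn, Klf1 and Slc4a1) was -0.98 to -0.66 in controls and -0.56 to -0.01 in cafeteria animals, again with no overlap. All 7 were higher in the cafeteria mean, as were 57% of all genes with a symbol. An unadjusted p under 0.05 in limma was met by 6 of them (85.7%, against 4.63% of genes with a symbol), and none passed after adjustment. By animal the erythroid mean was -0.66, -0.78, -0.98 and -0.86 in controls 1, 4, 7 and 13. In cafeteria animals 1, 4, 7, 10 and 13 it was -0.01, -0.08, -0.56, -0.42 and -0.27. Monocyte markers, 8 genes, ran from -0.41 to 0.18 in controls and -0.58 to 0.30 in cafeteria animals, and Cd163, a monocyte gene induced by glucocorticoid, was not well above background on any array. The part of any of these cells in the Tgm2 difference was not tested.

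**Figure D2:**
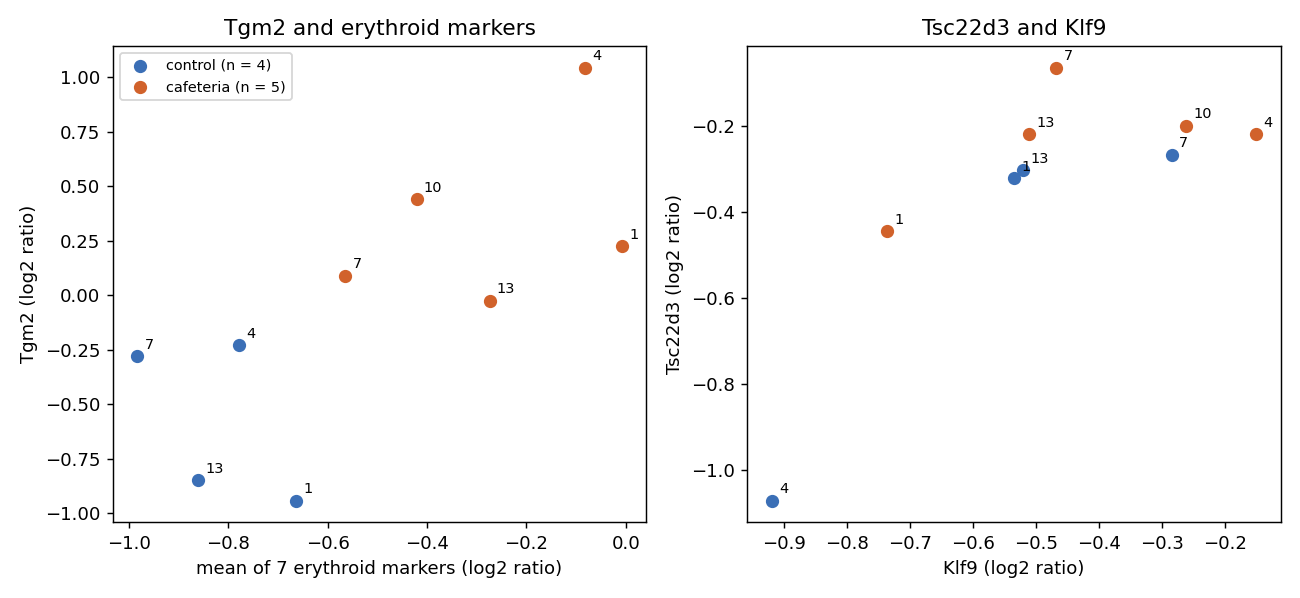
Left, Tgm2 (vertical, log2 ratio) against the mean log2 ratio of 7 erythroid markers (horizontal); right, Tsc22d3 (vertical) against Klf9 (horizontal); each point is 1 animal with its number, 4 controls in blue and 5 cafeteria animals in orange. On the left the groups separate on both axes; on the right control 4 lies lowest on both, at -1.07 and -0.92.

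The other cell markers show what else the preparations held. T cell markers were all measured (14 of 14) and all 14 were lower in the cafeteria mean, 2 at an unadjusted p under 0.05. Their mean was -0.20 to 0.13 in controls and -0.42 to 0.06 in cafeteria animals. B cell markers (8 of 8) were higher in the cafeteria mean, with a mean of -0.25 to 0.13 in controls and -0.22 to 0.41 in cafeteria animals, and 8 of 9 NK and cytotoxic markers were higher too, 3 of them at an unadjusted p under 0.05. All 7 platelet markers were lower in the cafeteria mean, none at an unadjusted p under 0.05, with a median difference of -0.44 against -0.13 for T cell, 0.28 for B cell and 0.32 for NK and cytotoxic markers. Over all genes with a symbol 57% were higher in the cafeteria mean. Of 9 neutrophil genes on the array only 4 were tested, and Mmp8, Cxcr2, Fpr1, Mpo and Ltf did not pass the filter on dim probes. Lymphocyte and monocyte markers were thus measured as the label of mononuclear cells has it, with platelet and erythroid RNA also present. The mean of 10 genes induced by handling ran from -0.40 to 0.10 in controls and -0.66 to 0.27 in cafeteria animals.

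**Figure D3:**
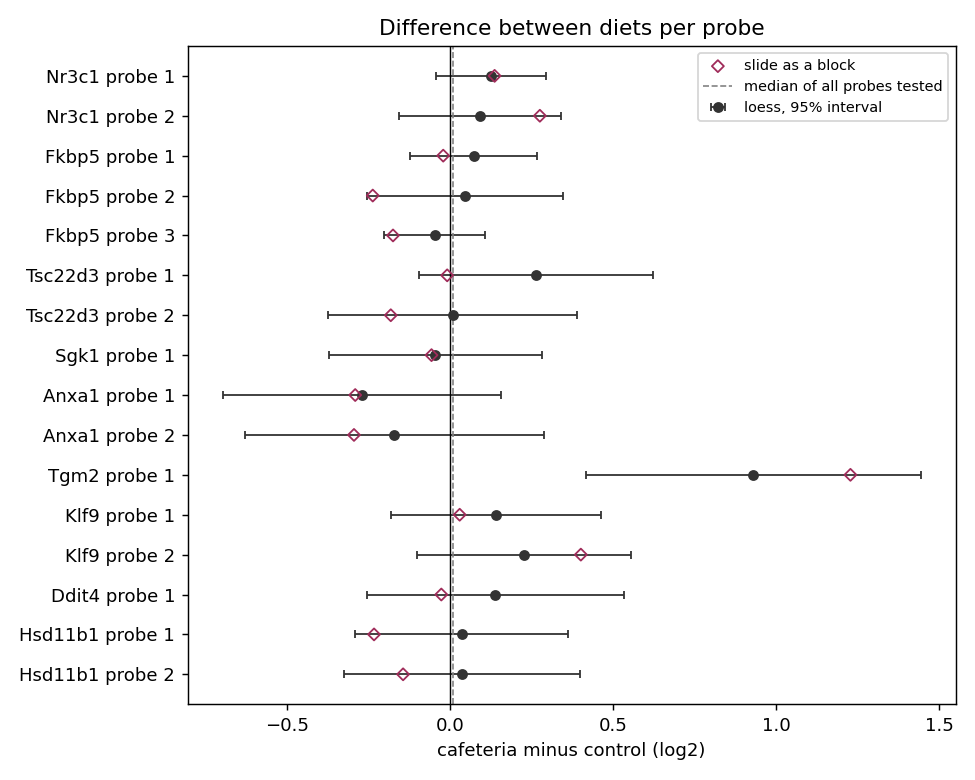
Difference between diets (horizontal, cafeteria minus control, log2) for the 16 probes tested, with the 95% interval of the limma fit as bars and the estimate with slide as a block as open diamonds; the dashed line is the median of all 25805 probes. The interval of Tgm2 runs from 0.42 to 1.44, and those of the other probes include 0.

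Across both diets, several of these genes lay on one side of the reference in all animals. The 2 Klf9 probes, the brighter Tsc22d3 probe and 2 of the 3 Fkbp5 probes, 5 of 16, were below the reference on all 9 arrays, against 1101 of 25805 probes (4.27%). Sgk1, Ddit4 and the second Tsc22d3 probe were below it on 8 of 9. The second Nr3c1 probe was above it on all 9, as were 1489 probes (5.77%). The count of 5 was 6 with the scanner software's own log ratio and 0 of 16 with median centring in place of loess, where 5 of the 16 probes were above the reference on all 9 arrays (16% of all probes). Because the animal's RNA was always in Cy5, dye and reference cannot be told apart in such a level.

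Animals of a group differed more in these genes than in most probes by the values used here. The within-group SD was 0.40 for Tgm2, 0.36 and 0.33 for Anxa1, 0.30 for Ddit4 and 0.27 for the brighter Tsc22d3 probe, against a median of 0.13 over all probes tested. Nr3c1 was at 0.11 by its brighter probe. In all, 12 of the 16 probes were above the 80th percentile of all probes. That count was 6 among probes of like brightness, 9 with median centring and 1 with the scanner software's log ratio, so it depends on the processing.

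Whether the genes moved together from animal to animal was asked of the 36 pairs of the 9 genes. None passed an adjusted p of 0.05 over the 36 exact permutation tests (two-sided, all 362880 pairings; lowest adjusted p 0.337), and 3 had an unadjusted p under 0.05. Tsc22d3 and Klf9 had Pearson r = 0.77 (exact permutation p = 0.00936) and Spearman rho = 0.78 (exact permutation p = 0.0172; adjusted 0.310) over the 9 animals. Without control 4 and cafeteria 7, the animals farthest from the median of Tsc22d3, r was 0.81, and with group means removed it was 0.75. The differences of the 2 genes had the same sign within slides 3 and 5. With the scanner software's log ratio their r was 0.67 (exact permutation p = 0.053). Only the brightest probe of each gene was used for pairs. Sgk1 and Anxa1 had r = -0.75 (exact permutation p = 0.0192) and rho = -0.85 (exact permutation p = 0.0061), with r = -0.59 without the 2 farthest animals and -0.88 with group means removed. Fkbp5 and Tsc22d3 had r = 0.77 (exact permutation p = 0.029) but rho = 0.42, and r = -0.27 without control 4 and cafeteria 7, so that relation rests on those animals. Nr3c1 was in none of the 3 pairs, and 19 of the 36 coefficients were above 0.

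Genes with the most alike profile over the 9 arrays were found among 10410 genes by the root mean square of the difference between centred log2 ratios. For Nr3c1 they were Tm2d1 (0.042), Cryzl1 (0.049) and Ubqln1 (0.049), where Nr3c1 itself had an SD of 0.12 over the arrays and the median gene lay 0.17 away. For Tsc22d3 they were Klf6 (0.106), Rps6ka1 (0.128) and Gtf2f1 (0.130), with an SD of 0.29 for Tsc22d3 and a median of 0.29. For Tgm2 they were Bst2 (0.327), the erythroid marker Slc4a1 (0.334) and the water channel Aqp1 (0.349), with an SD of 0.62 for Tgm2 and a median of 0.60. The nearest profile to Tgm2 was thus at a larger distance, relative to its own spread, than that to Nr3c1 or Tsc22d3.

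The rest of the pathway was listed by role, 69 genes of which 64 were on the array and 53 tested. With 1 probe per gene, 25 were higher and 28 lower in the cafeteria mean. An unadjusted p under 0.05 was met by 2 of the higher and 5 of the lower genes (13.2%, against 4.63% of 10451 genes with a symbol), and none passed in limma after adjustment. Their median difference was -0.02, against 0.01 over all those genes.

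Among receptor partners and chaperones (7 tested, 5 higher and 2 lower), Nr3c2, the mineralocorticoid receptor that also binds glucocorticoid, read -0.13 to 0.18 in controls and 0.09 to 0.72 in cafeteria animals. Its difference was 0.32 (SE 0.12, unadjusted p = 0.024 and adjusted p = 0.997 in limma), and the groups overlapped. Hsp90ab1, a constitutive form of the chaperone that holds the receptor ready for hormone, gave discordant probes. Its brighter probe was at 0.03 to 0.83 in controls and -0.77 to -0.06 in cafeteria animals, with no overlap and a difference of -0.64 (SE 0.19, unadjusted p = 0.0069 in limma), while the other probe differed by 0.06. Fkbp4, the co-chaperone that exchanges with Fkbp5 as the receptor travels to the nucleus, differed by 0.23, 0.30 and 0.01 by its 3 probes (unadjusted p = 0.063, 0.011 and 0.91 in limma).

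Coregulators (8 tested, 3 higher and 5 lower) included Ncor1, a corepressor of nuclear receptors, at -0.23 (SE 0.10, unadjusted p = 0.040 in limma) by its brightest probe, and -0.03 and -0.20 by the others. The 3 genes of ligand metabolism that were tested, Hsd11b2, Srd5a1 and Abcb1a, had a median of 0.00 and none with an unadjusted p under 0.05. Abcb1b, Akr1c1 and H6pd did not pass the filter on dim probes.

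Further genes that glucocorticoids induce (23 tested) were higher in 10 cases and lower in 13, with a median of -0.02. Angptl4, an inhibitor of lipoprotein lipase, was at -0.23 to 0.00 in controls and 0.00 to 0.40 in cafeteria animals, groups that nearly touched without overlapping, and had a difference of 0.22 (SE 0.09, unadjusted p = 0.032 in limma). Il7r, the interleukin 7 receptor of T cells, was lower by 0.39 (difference -0.39, SE 0.16, unadjusted p = 0.034 in limma) and Foxo1 by 0.25 (difference -0.25, SE 0.11, unadjusted p = 0.046 in limma). The T cell markers were lower in the same animals' mean, and their part was not tested. Classic targets overlapped between the groups: Per1, a clock gene, differed by 0.08 (SE 0.16), Nfkbia, the inhibitor of NF-kB, by 0.16 and -0.04, the chemokine receptor Cxcr4 by 0.13 and 0.08, and the phosphatase Dusp1 by 0.01 (SE 0.40). Dusp1 was -1.43 within slide 3 and 1.03 within slide 5.

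Of genes that glucocorticoids repress (12 tested, 5 higher and 7 lower, median -0.11), the monocyte chemoattractant Ccl2 read -0.25 to 0.09 in controls and -1.59 to -0.08 in cafeteria animals. Its difference was -0.79 (SE 0.27, unadjusted p = 0.014 in limma), and it was -1.34 and -0.37 within slides 3 and 5. It was the only repressed gene with an unadjusted p under 0.05.

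**Figure D4:**
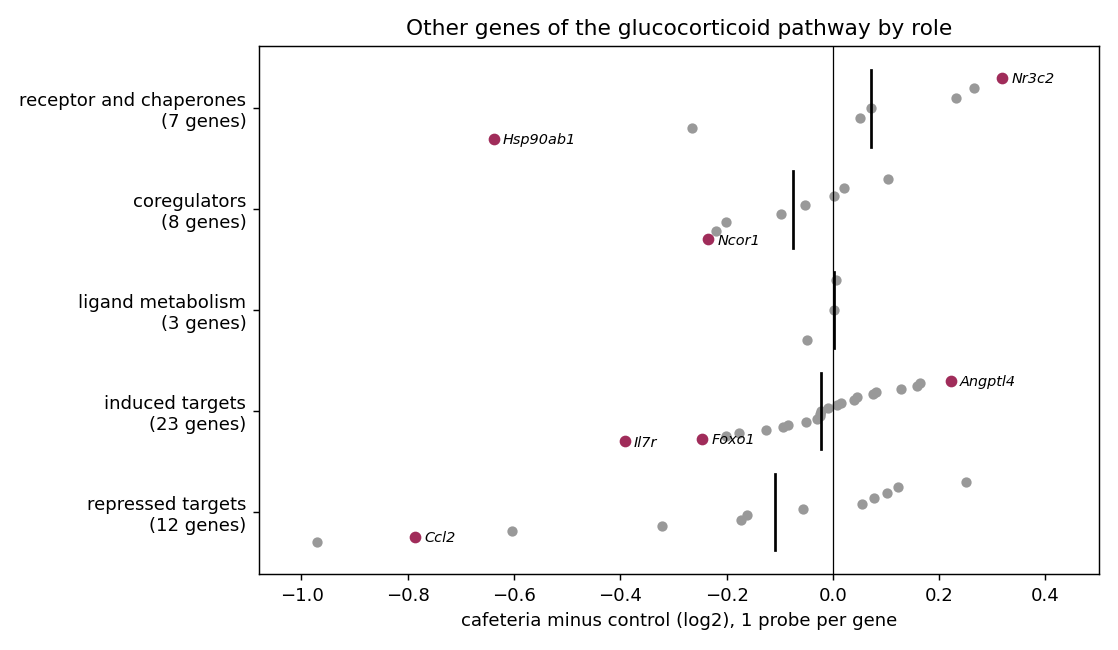
Difference between diets (horizontal, cafeteria minus control, log2) of 53 other genes of the pathway, 1 point per gene in rows by role, with the row's median as a vertical bar; the 7 genes with an unadjusted p under 0.05 are named and coloured. The points of every row lie on both sides of 0.

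How far a gene's difference depended on the processing, the slides and the arrays used varied among the genes, taking only the brightest probe of each. Over 25 alternative settings Tgm2 kept its sign, with 0.76 to 1.38, and Nr3c1 did too, with 0.07 to 0.33. For Tgm2 the sign could not change within a slide or when 1 array was left out, because its groups did not overlap. Those settings are therefore no support for its direction. Sgk1 took the opposite sign in 7 settings and Hsd11b1 in 5. Fkbp5, Tsc22d3 and Ddit4 did so in 2 settings each, Klf9 and Anxa1 in 1. Only Sgk1 changed sign under another background correction or normalization. The changes of the other genes came with slide as a fixed block, within a slide or with 1 array left out.

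**Figure D5:**
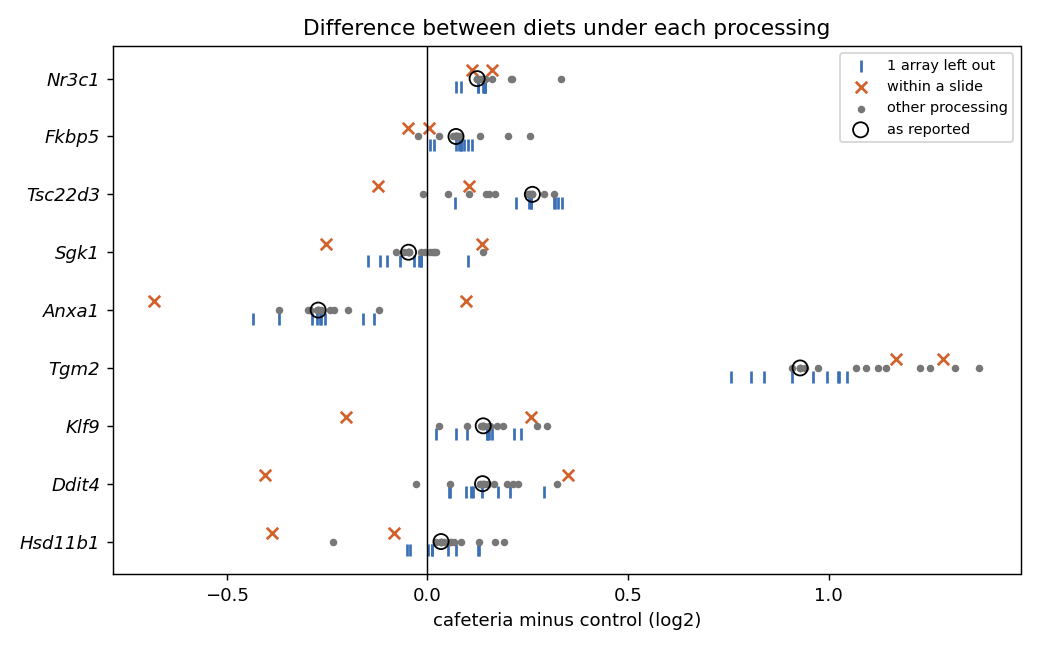
Difference between diets (horizontal, cafeteria minus control, log2) of 9 genes under each setting: as reported (circle), with 1 array left out (blue bars), within a slide (orange crosses) and under other processing (grey points). All points of Tgm2 lie between 0.76 and 1.38, and those of Sgk1 fall on both sides of 0.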

How the data were processed

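The genes and the lists of other genes were chosen with earlier results of these data known. Each scanner file deposited by the authors holds mean spot and median background intensity of both dyes and, per the file headers, the log10 Cy5/Cy3 ratio that Agilent Feature Extraction 9.5.1.1 gave after its own normalization. A table deposited by the authors holds log2 values for 21466 of 45220 spots. It followed Cy5 by rank (0.993 to 0.999) and had array medians of 9.40 to 9.69. Its centring and any use of the reference are unknown. Here background was corrected by normexp (offset 50), and ratios were normalized by loess within each array with control spots at weight 0. Outlier spots were left out and spots of a probe averaged. Probes with Cy5 well above background on at least 4 arrays were tested with limma 3.58.1 (R 4.3.3), unblocked, with Benjamini-Hochberg adjustment over 25805 probes and a threshold of 0.05. Per array, 58.8% to 66.7% of spots had Cy5 well above background, and the number of arrays limits the precision.

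Probes were named through RefSeq by accession (10835), symbol (5151) or synonym (3457), 81 names on another chromosome were dropped, and 21569 kept the name in the file. Positions are rn4, and the files do not place probes in exons or untranslated regions. The probe of highest mean signal stood for a gene. Named are all 10 genes, 8 other pathway genes whatever their values, up to 4 per role list with the smallest unadjusted p under 0.05, and the 3 most alike genes of Nr3c1, Tsc22d3 and Tgm2. Replicates are separate animals. Alternatives changed the background correction, normalization, starting values, filter, slide, replicate number, array weights and prior, and left out each array. Scripts were tested on simulated data. Python 3.11.15 with SciPy and matplotlib 3.10.9 gave the permutation tests and figures.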

Additional observations from a re-analysis of the deposited data

Results flagged for a closer look

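Single animals stood apart from their group in 4 of 72 groups of values looked at, by Dixon's test at its 95% limit, which chance passes in about 1 of 20. Nr3c1 in cafeteria 13 was at 0.33, with the nearest cafeteria animal at 0.11. Tsc22d3 in control 4 was at -1.07, with the nearest control at -0.32; with the scanner software's log ratio these were -0.81 and -0.55. Fkbp4 in cafeteria 1 was at -0.31, with the nearest at -0.06. The mean of the B cell markers in control 4 was 0.13, with the nearest control at -0.21.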

How the results depend on the processing

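The count of probes called over the whole array, 2, was 0 with no background correction, with median centring, with Cy5 alone, with the log ratio of the scanner software, with either form of the authors' values, with slide as a fixed block, with array weights and with a trended and robust prior. It ran from 0 to 2 when each array was left out. Unadjusted p under 0.05 was met by 274 probes under median centring and by 2572 in the authors' values as deposited, against 1136. No probe of the 9 genes and none of the other pathway genes passed after adjustment in any of 23 settings (adjusted p of Tgm2 0.39 to 1.00). The median over the 9 genes, 0.12, was 0.29 with the authors' values as deposited, where all probes shifted by 0.13, and -0.022 with slide as a fixed block and -0.12 within slide 3; the cause was not tested. With the replicate number as a block, 0 probes were called and Tgm2 was at 0.91. Same-numbered animals correlated at -0.15 to 0.11 over probes, in deviations from the group means. Low correlations over all probes cannot exclude that the numbers pair the animals in some way. Pairs of genes gave 0 adjusted calls with group means removed (lowest adjusted p 0.0693 by permutation) and with the scanner software's ratio (0.472 by exact permutation). With group means removed the p is only approximate, because deviations from group means are not freely exchangeable between animals. Removing slide means was not run for pairs, because only 4 arrays share a slide. The alternatives for levels against the reference and for the spread within groups were chosen after seeing the data.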
